A study of Mus musculus with 2688 samples.

Results

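The cells described here are microglia of 3-week-old mice with a high level of Apoe RNA. A well was counted as a member when it lay in plate columns 3 to 24, had reads of at least 500 genes, drew at most 20% of its counts from mitochondrially encoded genes, and was selected on its own Apoe level, with at least 3000 CPM (gene counts scaled to 1e6 per well, spike-ins left out). Of 776 such 3-week wells, 236 (30.4%) reached that level, out of 2199 wells of these plate columns kept over all ages. They were compared with the 351 wells (45.2%) of the same age under 1000 CPM of Apoe, called Apoe-low here, and the 189 wells (24.4%) in between served as an intermediate class.

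Microglia are the macrophages that live within brain and spinal cord tissue. They take up dying cells, synaptic material and lipid-rich debris, break them down in lysosomes and return cholesterol to other cells on lipoprotein particles. Apoe encodes apolipoprotein E, the main protein of these particles in brain; astrocytes are its main source in the healthy adult, and microglia make more of it during development, around plaques and during demyelination, where its RNA is a usual marker of the phagocytic or disease-associated state.

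All mice were of the CD1 strain and their cells are labelled wild type. The 3-week cells came from spinal cord, cerebellum, cortex, corpus callosum and hippocampus, in 3 replicates of each, or 15 region samples; embryonic cells (forebrain, midbrain, cerebellum, spinal cord, 4 replicates each) and 16-week cells (the 5 regions of the 3-week cells, 4 replicates each) are used below only for comparison. After perfusion, cells had been stained for CD11b, CD45, Ly6C, Ly6G and CD206 and sorted 1 to a well, so a shift in Apoe among cells outside that gate is not seen here. Libraries were full-length SmartSeq2 libraries without molecular identifiers, so counts are reads, not molecules. Kept 3-week wells held 1196 to 581342 gene counts (median 208939). Summed by region sample and class, the 6 to 29 Apoe-high wells gave 1329168 to 6622534 counts and the 11 to 37 Apoe-low wells 1804612 to 8319420. Both classes of a region sample lay on the same plate.

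Apoe itself chose the wells, so its levels are a description. Apoe-high wells had a median of 5886 CPM, or 1283.5 reads, with 80% of the wells between 3309 and 13429 CPM and a highest value of 48550 CPM, in a spinal cord well. Apoe-low wells had a median of 129 CPM, or 14 reads, and 122 of them had no Apoe read at all. Of 28 blank wells, 10 had Apoe reads, at most 14. The levels ran on without a gap: 53 wells lay between 3000 and 4000 CPM, 70 between 4000 and 6000, 59 between 6000 and 10000 and 54 above, while 59 lay between 2000 and 3000. The members nearest the threshold had 3011, 3031 and 3069 CPM, the wells just outside it 2981, 2975 and 2940, and the highest Apoe-low wells 991, 990 and 987. The class is thus a range cut from a continuous level of Apoe, and whether its wells form a type of their own was not tested.

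**Figure D1:**
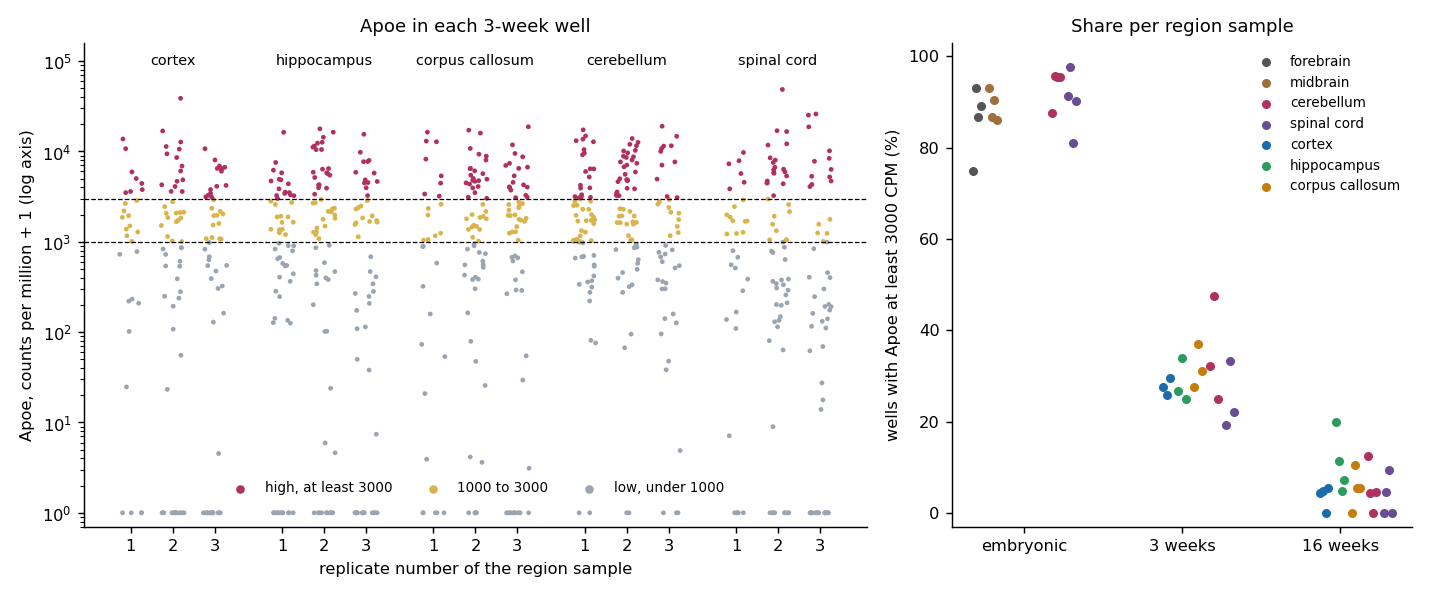
Left, Apoe in each kept 3-week well (CPM + 1, log axis) by region sample, coloured by class; right, the share of wells with at least 3000 CPM of Apoe in each region sample at the 3 ages (percent, points are region samples). Wells fill the range between the classes, and the members make up 583 of 644 embryonic wells, 236 of 776 at 3 weeks and 39 of 779 at 16 weeks.

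Apoe-high wells were found in every 3-week region sample, at shares from 19.4% (6 of 31 wells in spinal cord replicate 1, 95% Wilson interval 9.19 to 36.3%) to 47.5% (29 of 61 wells in cerebellum replicate 2, interval 35.5 to 59.8%). By region the mean share was 34.9% ± 11.5 in cerebellum, 31.9% ± 4.81 in corpus callosum, 28.5% ± 4.71 in hippocampus, 27.7% ± 1.89 in cortex and 24.97% ± 7.38 in spinal cord (SD, n = 3 each). Each neighbouring pair in that order differed by less than the larger SD of the pair. Over the ages, 90.5% of embryonic wells, 30.4% of 3-week wells and 5.01% of 16-week wells were at or above 3000 CPM. At 16 weeks the regional means ran from 3.52% ± 4.54 in spinal cord to 10.9% ± 6.67 in hippocampus (SD, n = 4 each). Plates were not balanced over the ages, so age and plate were not separated in these shares.

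The members carried the RNA of microglia. Csf1r, Tmem119, P2ry12, Cx3cr1, Siglech and C1qa had reads in all 222 Apoe-high wells deep enough to be thinned to 37058 counts, and Fcrls in 96.4% and the microglial transcription factor Sall1 in 86.5% of them. Among the markers of border macrophages, the macrophages of meninges and vessels, Pf4 had no read in any Apoe-high well, Lyve1 and F13a1 had reads in 2 wells each, Cd163 and Ms4a7 in 1 each, and Mrc1, which encodes the CD206 used in the gate, in 6 of 236 wells against 13 of 351 Apoe-low wells. The summed level of the 16 border macrophage genes was 8.05 to 459 CPM over Apoe-high sums (median 228) and 72.4 to 572 CPM over Apoe-low sums (median 290), most of it Stab1. None of the 3 border macrophage genes that passed the filter on low counts was called. Of 10 monocyte genes, Ly6c2 had no read in either class. Ccr2 had reads in 93 of 236 Apoe-high and 128 of 351 Apoe-low wells, and Plac8 in 8 and 12. The monocyte list summed to 1.68 to 104 CPM over Apoe-high sums (median 14.2) and 4.34 to 100 CPM over Apoe-low sums (median 11.2). No monocyte gene was called. Of 15 astrocyte genes Ntsr2 alone had no Apoe-high read, and the summed level was 59.1 to 544 CPM against 68.5 to 330 CPM. Astrocyte water channel Aqp4 had reads in 4 of 236 Apoe-high and 2 of 351 Apoe-low wells. The 12 neuronal genes summed to 0 to 68.0 CPM in Apoe-high and 0 to 111 CPM in Apoe-low sums, the 13 oligodendrocyte genes to 93.1 to 677 and 45.8 to 364 CPM, and none of either list was called. No caller of doublets was run, no 2 wells held identical counts, and no well name was shared.

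The classes differed in well quality. Over region samples, the median number of detected genes averaged 2808 ± 228 in Apoe-high and 2654 ± 189 in Apoe-low wells (SD, n = 15) and was higher in 12 of 15 region samples (adjusted p = 0.0210, exact two-sided sign-flip permutation test over region samples, adjusted over 4 measures). The mitochondrial share averaged 1.704% ± 0.842 against 1.19% ± 0.431 and was higher in 12 of 15 (adjusted p = 0.00586, same exact test). The spike-in share, which falls as a well holds more cellular RNA, averaged 0.170% ± 0.0332 against 0.212% ± 0.0586 and was higher in 3 of 15 (adjusted p = 0.0131, same exact test). The number of gene counts did not pass the test (219749 against 206180, adjusted p = 0.427, same exact test). Detected genes lost their call without replicate 2 or without replicate 3, the spike-in share did so too, and the mitochondrial share did so without replicate 3. On wells thinned to equal depth, the median number of detected genes still averaged 2290 ± 128 in Apoe-high and 2193 ± 135 in Apoe-low wells (SD, n = 15). It was higher in 11 of 15 region samples, a difference that was not tested. Gene results on thinned wells are given below. The part of detected genes and of the mitochondrial and spike-in shares in them was not tested.

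A second difference in quality lay in the predicted genes Gm10800 and Gm10801, near-identical loci whose reads cannot be assigned to one or the other with certainty, and which were picked out after their values were seen. Together they reached 1000 CPM in 68 of 351 Apoe-low wells (19.4%), 25 of 189 intermediate wells (13.2%) and 20 of 236 Apoe-high wells (8.47%), with the larger share in the Apoe-low class in 14 of 15 region samples. In 1 Apoe-low well they took 70.7% of all gene counts. The 68 Apoe-low wells held a median of 37058 counts, against 218123 in the other Apoe-low wells, and a spike-in share of 0.376% against 0.180%. Without these wells, 32.6% of the 663 wells left were Apoe-high, and the spike-in share no longer passed the test (0.164% against 0.184%, adjusted p = 0.117, exact sign-flip permutation test). Results without these wells are given beside the main ones.

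The main comparison asked which other genes went with Apoe within the same region sample. Counts of the wells of each class were summed per region sample, and edgeR's quasi-likelihood test was fitted to all genes with the region sample as a block (15 pairs); Apoe was left out. Of 9129 genes tested, 8 (0.0876%) were called at an adjusted p under 0.05, with 6 higher (0.0657%) and 2 lower (0.0219%) in Apoe-high wells. The genes higher in Apoe-high wells were Lag3, Ctsz, Ctsa, Psap, B2m and Axl, and Slc2a5 and Papd5 were lower. At an unadjusted p under 0.05 there were 390 genes, 110 higher (1.2%) and 280 lower (3.07%). The median log2 change over all genes was -0.18, and -0.09 over the 3664 genes of at least 50 CPM; on equal-depth wells and a log scale of single wells it was 0.03. The 8 calls rest on all 3 replicates, since without replicate 1, 2 or 3 none was left. The direction of each of the 8 was the same in every alternative that tested it. Region samples of 1 age may partly come from the same mice, and nothing in the labels ties a number to one animal, so these p-values may be too small. Summed over regions by replicate number (3 pairs), 0 of 13783 genes were called by edgeR (687 at an unadjusted p under 0.05). Each of the 8 genes had the direction of the main comparison in 3 of 3 pairs. These sums and the other alternatives draw on the wells that gave the 8 calls, so a shared direction is no separate support.

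Ctsz, Ctsa and Psap, 3 genes of the lysosome, were higher together. Ctsz (2:174427493-174439039, minus strand, in GRCm38 as deposited, as for all gene positions here) encodes cathepsin Z, a carboxypeptidase of the lysosome. Its level over the 15 Apoe-high sums was lowest at 1736, had a median of 2843 and reached 5105 CPM, against 989, 1945 and 2352 CPM over the Apoe-low sums. It was above every Apoe-low sum in 10 of 15 Apoe-high sums, and higher within 14 of 15 pairs. The mean was 2925 ± 818 against 1889 ± 391 CPM (SD, n = 15), a log2 change of 0.62 ± 0.095 (SE, edgeR, adjusted p = 0.0125).

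Ctsa (2:164832873-164841032, plus strand) encodes cathepsin A, a carboxypeptidase that also shields beta-galactosidase and neuraminidase in the lysosome. Apoe-high sums ran from 1838 over a median of 3088 to 3796 CPM and Apoe-low sums from 1352 over 2064 to 2658 CPM. Of the Apoe-high sums 12 lay above every Apoe-low sum, and 13 of 15 pairs were higher; over all genes 0.613% were higher in at least 13 pairs. The exceptions were cortex replicate 1 (1838 against 2362 CPM) and corpus callosum replicate 2 (2413 against 2658 CPM). The log2 change was 0.55 ± 0.095 (SE, edgeR, adjusted p = 0.0277).

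Psap (10:60277627-60302597, plus strand) encodes prosaposin, the precursor of the saposins that present sphingolipids to lysosomal hydrolases. Its Apoe-high sums ran from 2136 over 3863 to 5426 CPM and its Apoe-low sums from 1983 over 2612 to 3553 CPM, so the ranges overlapped, but it was higher within 15 of 15 pairs. The log2 change was 0.45 ± 0.083 (SE, edgeR, adjusted p = 0.0496).

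The lysosome list held 26 genes, of which 25 passed the filter. Of these, 3 were called higher and none lower, beside 0.0657% and 0.0219% of all genes. At an unadjusted p under 0.05, 13 were higher and none lower, beside 1.2% and 3.07% of all genes. A positive log2 change was found in 22 of them, and in 3358 of all 9129 genes. The median was 0.29, beside -0.18 over all genes and -0.09 over genes of at least 50 CPM. On wells thinned to equal depth 5 of 24 were called higher, beside 0.105% of all genes tested there. Ctsb (adjusted p = 0.0294) and Ctsl (adjusted p = 0.0223, edgeR) were added to the 3. The list's median stayed positive in 26 of 26 settings, between 0.22 and 0.85. The summed level of the list had a median of 80480 CPM in Apoe-high and 68468 CPM in Apoe-low sums and was higher in 13 of 15 pairs. Members that did not pass the adjusted threshold in this fit include Ctsb, cathepsin B (4876 ± 1893 against 2971 ± 744 CPM, SD, n = 15; log2 change 0.67, edgeR adjusted p = 0.119), Ctsl, cathepsin L (0.48, adjusted p = 0.119), Grn, progranulin (0.38, adjusted p = 0.138), and Npc2, which hands cholesterol to the lysosomal membrane (0.58, adjusted p = 0.257). Lgmn, legumain, had a log2 change of -0.0064.

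The transcription factors of the TFEB family bind a CLEAR element, whose core is CACGTG, upstream of many lysosomal genes, so the letters just upstream of the starts are shown for the called genes with a window clear of annotated transcripts, and for the lysosomal membrane gene Lamp1 as the list member with the most matches. Each line is the 100 bases before the RefSeq start (GRCm38.p6), read 5′ to 3′ on the gene's strand, with CACGTG in capitals; the motif is its own reverse complement, so both strands are covered.
Lamp1, chr8:13159061-13159160, plus strand: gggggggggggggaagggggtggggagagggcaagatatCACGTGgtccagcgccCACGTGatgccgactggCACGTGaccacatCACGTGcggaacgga
Ctsz, chr2:174439040-174439139, minus strand: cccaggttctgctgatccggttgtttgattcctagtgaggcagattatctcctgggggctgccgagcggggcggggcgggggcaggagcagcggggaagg
Psap, chr10:60277528-60277627, plus strand: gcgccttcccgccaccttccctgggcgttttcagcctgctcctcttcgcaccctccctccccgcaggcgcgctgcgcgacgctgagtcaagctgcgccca
The Lamp1 window held 4 matches, between 61 and 10 bases before the start, and the Ctsz and Psap windows held none. Of the 21 lysosome genes with a window, 5 (Ctsa, Ctsd, Lamp1, Glb1 and Lgmn, 23.8%) held the motif, against 999 of 27025 genes (3.70%) with a window of that length. Lamp1 itself had a log2 change of 0.26 (1874 ± 356 against 1549 ± 176 CPM, SD, n = 15; edgeR adjusted p = 0.614), and Lgmn one of -0.0064. Of the called lysosome genes, Ctsa had a match and Ctsz and Psap had none. The RNAs of the factors themselves were low: Tfeb had 29.0 ± 18.3 against 28.6 ± 23.9 CPM and Tfe3 205 ± 77.8 against 245 ± 90.8 CPM (SD, n = 15), and neither was called (edgeR adjusted p = 1 for both).

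Lag3 (6:124904361-124911705, minus strand) encodes an immune checkpoint receptor best known on T cells, where it binds MHC class II, and its RNA is a regular part of the mouse microglial profile. Its level was lowest at 541, had a median of 933 and reached 1360 CPM in the Apoe-high sums, against 163, 371.5 and 1174 CPM in the Apoe-low sums. The 2 ranges overlapped widely, since Apoe-low wells of some region samples were as high as Apoe-high wells of others, but within region samples Lag3 was higher in 14 of 15 pairs. The exception was cortex replicate 1. The log2 change was 0.99 ± 0.16 (SE, edgeR, adjusted p = 0.0125), or 938 ± 271 against 529 ± 310 CPM (SD, n = 15). In wells thinned to equal depth, Lag3 had reads in 205 of 222 Apoe-high wells (92.3%) and 223 of 302 Apoe-low wells (73.8%). Of T and NK cell genes, 8 of 10 had no read in any Apoe-high well, among them Cd3d, Cd3e, Cd3g and Trac.

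B2m (2:122147686-122153083, plus strand) encodes beta-2-microglobulin, the light chain of MHC class I. Apoe-high sums ran from 1375 over 2002 to 2593 CPM and Apoe-low sums from 1265 over 1407 to 2252 CPM, and 14 of 15 pairs were higher. The log2 change was 0.40 ± 0.077 (SE, edgeR, adjusted p = 0.0497), and on wells thinned to equal depth it was 0.30 and was not called (adjusted p = 0.331). Of the 15 MHC class I genes 13 passed the filter. B2m was the 1 called, 3 were higher at an unadjusted p under 0.05 and none lower, beside 1.2% and 3.07% of all genes, and the median was 0.33 beside -0.18. Over 26 settings the median lay between 0.0034 (without replicate 2) and 0.55. H2-D1, a heavy chain whose reads may be split with near-identical class I copies, had 727 ± 263 against 497 ± 194 CPM (SD, n = 15; log2 change 0.55, edgeR adjusted p = 0.158).

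Slc2a5 (4:150119283-150144169, plus strand) encodes the fructose transporter GLUT5, in brain a marker of microglia, and it was lower in Apoe-high wells in 15 of 15 pairs, which 2 of the 9129 genes (0.0219%) were. In cerebellum replicate 2 the levels were nearly equal, at 774 against 776 CPM. Without the wells high in Gm10800 and Gm10801, Slc2a5 was higher in 1 of 15 pairs. Apoe-high sums ran from 553 over 1057 to 1663 CPM and Apoe-low sums from 776 over 1723 to 2606 CPM, and 5 Apoe-high sums lay under every Apoe-low sum. The log2 change was -0.74 ± 0.11 (SE, edgeR, adjusted p = 0.0125), or 1049 ± 328 against 1722 ± 433 CPM (SD, n = 15). Reads of Slc2a5 were found in 196 of 222 thinned Apoe-high wells (88.3%) and 290 of 302 Apoe-low wells (96.0%).

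Slc2a5 was the 1 called member of the homeostatic list, the 20 genes that mark surveying adult microglia. Of these 20, all tested, 7 were lower and 3 higher at an unadjusted p under 0.05, beside 3.07% and 1.2% of all genes. The median log2 change was -0.16, beside -0.18 over all genes and -0.09 over genes of at least 50 CPM, as all 20 were. It was positive in 1 of 26 settings, at 0.38 on the mean of log2(CPM + 1) of single wells that were not thinned. By that measure on wells thinned to equal depth it was -0.014. The purinergic receptor gene P2ry12 had 9020 ± 1177 against 10498 ± 1152 CPM (SD, n = 15; log2 change -0.22, edgeR adjusted p = 0.482) and Tmem119 5987 ± 2198 against 7135 ± 1214 CPM (-0.33, adjusted p = 0.651). Selplg, the gene of a selectin ligand, had a change of -0.27 (adjusted p = 0.285). The receptor gene Csf1r and the complement gene C1qa had changes of -0.0038 and 0.015 (edgeR adjusted p = 1 for both).

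Axl and Papd5 were called on reads from few wells. Axl (7:25757273-25788705, minus strand) encodes a receptor tyrosine kinase by which phagocytes bind phosphatidylserine on dying cells. It had reads in 50 of 236 Apoe-high wells and 11 of 351 Apoe-low wells, and, thinned to equal depth, in 18.9% against 2.32%. Summed, it ran from 0 over 98.0 to 299 CPM in Apoe-high and from 0 over 0 to 181 CPM in Apoe-low sums, with 8 Apoe-low and 4 Apoe-high sums at 0, and was higher in 10 of 15 pairs (114 ± 118 against 13.7 ± 46.5 CPM, SD, n = 15; edgeR adjusted p = 0.0497). Because so many sums were at 0, the fitted log2 change of 6.61 depends on the model's prior and is not a measure of size. Papd5 (8:88199213-88259722, plus strand), the gene of a non-canonical poly(A) polymerase, had 2.35 ± 5.61 against 31.7 ± 29.4 CPM (SD, n = 15; edgeR adjusted p = 0.0277), with reads in 11 of 236 and 36 of 351 wells. It lies under the 20 CPM set for genes to be named and is named because the 8 calls are few.

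**Figure D2:**
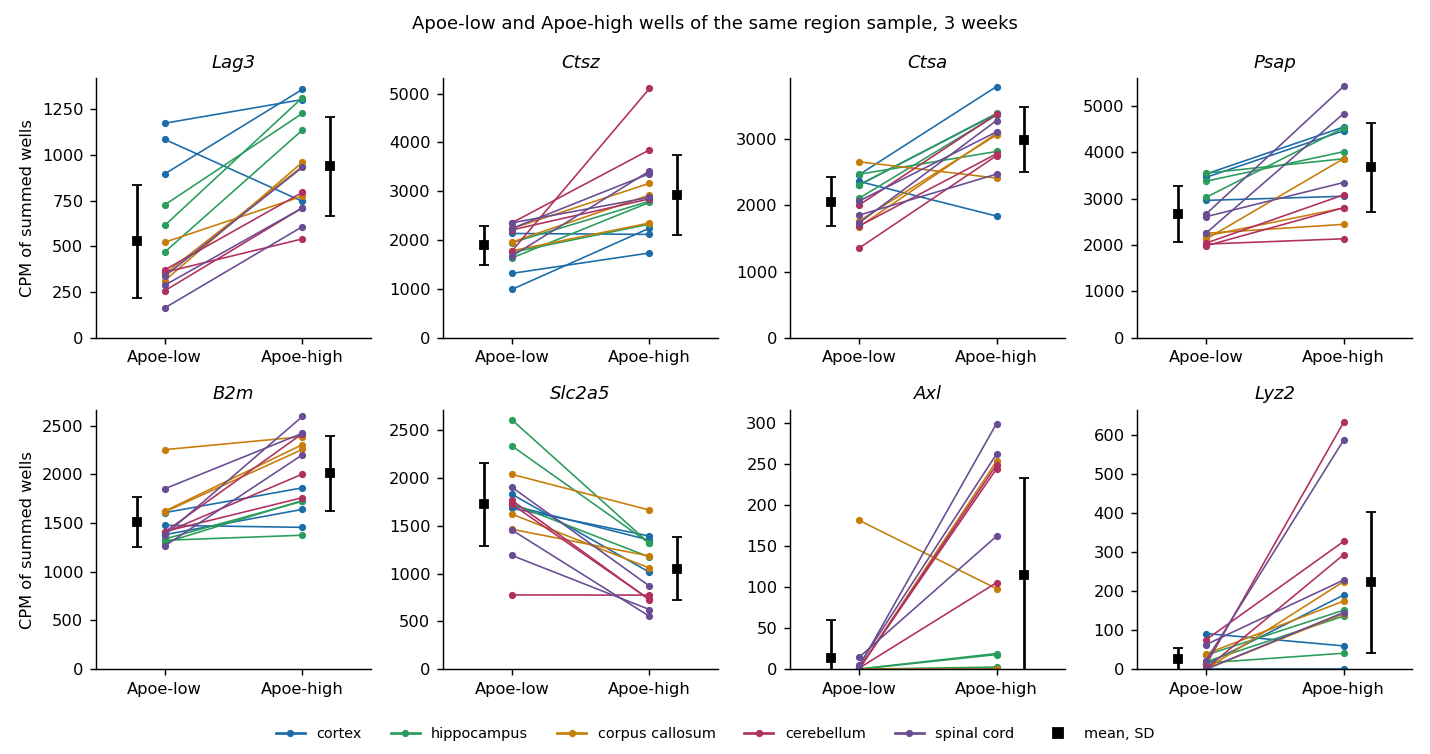
Level (CPM of summed wells) of 8 genes in Apoe-low and Apoe-high wells, with a line for each of 15 region samples coloured by region and squares with bars for the mean and SD. Psap is higher in 15 of 15 pairs and Slc2a5 lower in 15 of 15; Axl is at 0 in 8 Apoe-low sums and Lyz2 has an Apoe-low median of 16.1 CPM.

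On sums of wells thinned to equal depth, edgeR called 8 of 6690 genes (0.12%), 7 higher (0.105%) and 1 lower (0.0149%). They were Lag3 (log2 change 1.07), Ctsz (0.55), Ctsa (0.49), Psap (0.44), Ctsb (0.68), Ctsl (0.50) and Lyz2 (3.59) among the higher and Slc2a5 (-0.72) as the lower. B2m was not called there, and Axl and Papd5 did not pass the filter.

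Without the wells high in Gm10800 and Gm10801, 7 of 8855 genes were called (0.0791%), 6 higher (0.0678%) and 1 lower (0.0113%). Lag3 (log2 change 0.99), Ctsz (0.63), Ctsa (0.55), Psap (0.46), B2m (0.44) and Slc2a5 (-0.80) were among them, Colgalt1, the gene of a collagen galactosyltransferase, was added (1.05, edgeR adjusted p = 0.0241), Papd5 was at an adjusted p of 0.0577, and Axl did not pass the filter. Gm10800 itself had 590 ± 857 CPM in Apoe-high and 3560 ± 4319 CPM in Apoe-low sums (SD, n = 15; edgeR adjusted p = 0.198) and Gm10801 an adjusted p of 0.0572.

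Phagocytic and disease-associated genes are the list to which Apoe is usually assigned. Of 25 genes 19 passed the filter. Axl, Ctsz and B2m were called higher and none lower, beside 0.0657% and 0.0219% of all genes. At an unadjusted p under 0.05, 14 were higher and none lower, beside 1.2% and 3.07% of all genes. Of the 19, 18 had a positive log2 change. The list's median was 0.62, beside -0.18 over all genes and -0.09 over genes of at least 50 CPM. It stayed positive in 26 of 26 settings (0.38 to 0.98). The phagocytic list shares Ctsb, Ctsd, Ctsl, Ctsz, Cd63 and Cd68 with the lysosome list. Its summed level had a median of 27474 CPM in Apoe-high and 20153 CPM in Apoe-low sums and was higher in 13 of 15 pairs.

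Several of its members were found in more wells but did not pass the main test, and they are named after their values were seen. Lyz2 (10:117277334-117282274, minus strand), lysozyme, which has a near-identical copy, had reads in 97 of 222 thinned Apoe-high wells (43.7%) and 22 of 302 Apoe-low wells (7.28%). Its sums ran from 0 over 175 to 634 CPM against 0 over 16.1 to 91.6 CPM, 12 of 15 Apoe-high sums lay above every Apoe-low sum, and 13 of 15 pairs were higher (edgeR adjusted p = 0.158, 0.0247 on wells thinned to equal depth, and 4.09e-05 by DESeq2). Cd63 (10:128908919-128912816, plus strand), a tetraspanin of late endosomes, had reads in 69.8% against 31.1% of thinned wells and 178 ± 126 against 46.9 ± 27.6 CPM (SD, n = 15; edgeR adjusted p = 0.257, 0.0844 on thinned wells, and 0.000341 by DESeq2). Spp1, osteopontin, had reads in 25 of 222 (11.3%) against 9 of 302 (2.98%) thinned wells, and 1 Apoe-high sum reached 6571 CPM while the median of the 15 was 32.1 CPM.

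A second kind of test weighed each well alike rather than each read. With limma on the mean log2(CPM + 1) of wells thinned to equal depth, an alternative chosen after seeing the data, 17 of 9129 genes were called (0.186%), 15 higher (0.164%) and 2 lower (0.0219%). Among the higher were Lag3, Ctsz, Axl, Lyz2, Cd63, Npc2, the sterol exporter gene Abcg1, the complement receptor gene C3ar1, Cd74 and Cd83 of antigen presentation, the metallothionein gene Mt1, the glycolytic gene Aldoa, Ap3d1 and Dhrs3, and the lower were Slc2a5 and Zkscan4. By that test Lyz2 had an adjusted p of 1.46e-06, Lag3 of 2.50e-06 and Cd63 of 3.09e-06, and Ctsa, Psap and B2m did not pass (0.374, 0.395 and 0.764). The same test on all wells without thinning called 80 genes (0.876%), 68 higher (0.745%) and 12 lower (0.131%), with 12 lysosome genes among the higher, and without the wells high in Gm10800 and Gm10801 it called 24 (0.263%), 22 higher (0.241%), with 4 of the lysosome list. DESeq2 on the sums called 231 (2.53%), 61 higher (0.668%) and 170 lower (1.86%), with 11 lysosome genes higher and none lower.

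**Figure D3:**
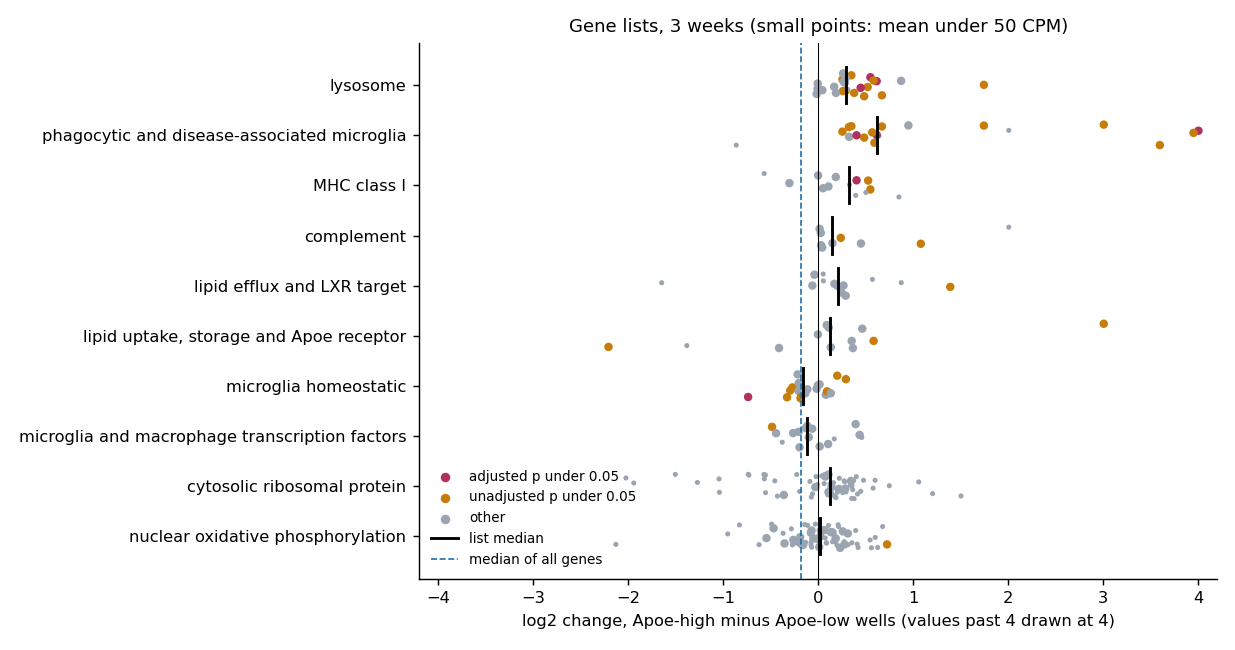
Log2 change of each tested gene (Apoe-high minus Apoe-low wells, edgeR) for the gene lists on the y axis; colour gives the p class, black bars are list medians and the dashed line is the median of all genes. The lysosome and phagocytic lists have medians of 0.29 and 0.62. The homeostatic list has -0.16, beside -0.18 over all genes and -0.09 over genes of at least 50 CPM.

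The other lists had no calls. Of 18 genes of lipid efflux, most of them targets of the LXR receptors that also drive Apoe, 13 passed the filter and none was called; the median was 0.20, Abcg1 had 301 ± 132 against 146 ± 104 CPM (SD, n = 15; edgeR adjusted p = 0.729), and Abca1, its partner exporter, 264 ± 158 against 210 ± 97.3 CPM (adjusted p = 1). Neither of Apoe's gene cluster neighbours Apoc1 and Apoc2 passed the filter; Apoc1 had reads in 13 of 222 thinned Apoe-high and 1 of 302 Apoe-low wells. Of 20 genes of lipid uptake, storage and Apoe receptors, 12 passed and none was called (median 0.12); Lrp1, a receptor of Apoe, had 655 ± 187 against 651 ± 162 CPM (SD, n = 15; adjusted p = 1). Of 20 cholesterol synthesis genes, 14 passed and none was called (median -0.06). The medians were 0.15 for 9 complement genes, 0.25 for 7 MHC class II genes, 0.12 for 66 cytosolic ribosomal protein genes and 0.02 for 72 nuclear oxidative phosphorylation genes, with no call by edgeR in any of them. Of 20 type I interferon genes 5 passed the filter (median -1.06), as did 10 chemokine and cytokine genes (-0.32), 10 immediate early and stress genes (-0.21) and 17 transcription factor genes (-0.11), again with no call.

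Rare programs took few wells of either class. In wells thinned to equal depth, at least 3 border macrophage genes were detected in 3 of 222 Apoe-high wells (1.35%) and 2 of 302 Apoe-low wells (0.662%). At least 5 G2/M genes were detected in 0 of 222, which allows a share of up to 1.35%, and in 5 of 302 (1.66%). Ccl3 and Ccl4 both reached 100 CPM in 3 and 2 wells, and Gpnmb and Spp1 in 1 and 0. None of the 4 passed the exact sign-flip permutation test over 15 region samples (adjusted p of 0.583 to 1). Unthinned, the border macrophage share was 2.12% against 3.42% and the G2/M share 0 against 2.28%.

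Levels of these genes were also read in finer classes. The called genes were found on these same wells, so a difference between the lowest and the upper classes follows from that choice. In 4 classes of rising Apoe (under 1000, 1000 to 3000, 3000 to 6000, and 6000 CPM or more) the mean of Lag3 was 549, 669, 751 and 1088 CPM and that of Ctsz 1964, 2308, 2612 and 2874 CPM (n = 15 region samples each). Ctsa had 2136, 2664, 2628 and 3170 CPM and Psap 2779, 3009, 3650 and 3395 CPM, so neither was higher at every step. B2m went from 1568 over 1712 and 1806 to 2068 CPM. Of genes not called in the main comparison and shown for their end classes, Ctsb went from 3091 over 3683 and 3861 to 5546 CPM, Cd63 from 48.8 over 104 and 141 to 189 CPM, and Lyz2 from 26.9 over 61.2 and 138 to 281 CPM. Slc2a5 went from 1792 over 1355 to 990 and 1047 CPM, so that the 2 upper classes differed by less than their SD of 391 and 382 CPM. The SD within each class was of the size of most of the steps, and the uppermost class held as few as 2 wells in a region sample. The intermediate class differed from the Apoe-low class in 0 of 8847 genes by edgeR (398 at an unadjusted p under 0.05); both comparisons share the Apoe-low wells.

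**Figure D4:**
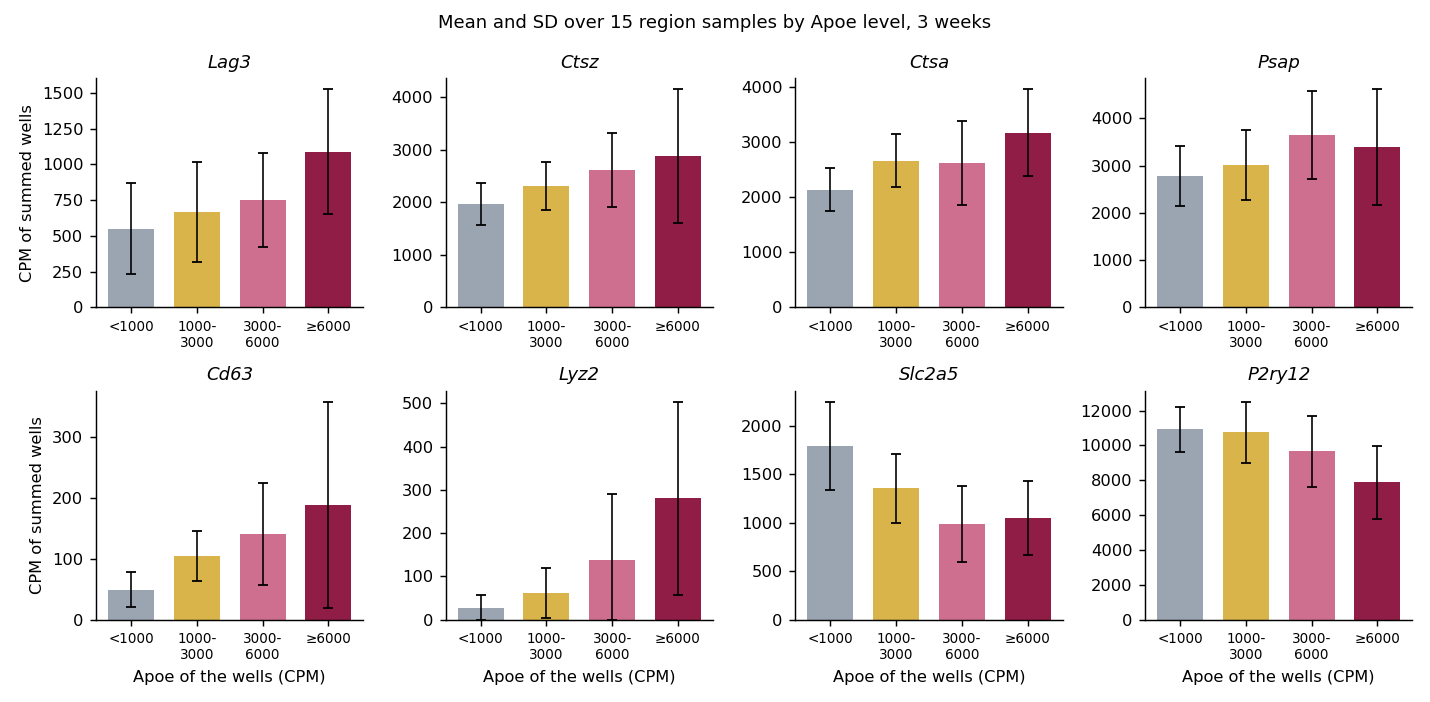
Mean level (CPM of summed wells, bars, with SD over 15 region samples; the lower end of a bar stops at 0) of 8 genes in wells of rising Apoe at 3 weeks. Lag3 goes from 549 to 1088 CPM and Slc2a5 from 1792 to 990 and 1047 CPM.

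No gene's change differed between the 5 regions by the interaction test over all 9129 genes (0 called by edgeR at an adjusted p under 0.05, 131 at an unadjusted p under 0.05). Psap was higher in 3 of 3 region samples in each of the 5 regions and Slc2a5 lower in each. Lag3 had log2 changes of 0.07 in cortex, 1.04 in hippocampus, 1.21 in corpus callosum, 1.05 in cerebellum and 1.56 in spinal cord (unadjusted p of the difference 0.0147, edgeR adjusted p = 1). The most unequal of the genes named here were Ctsb (-0.09, 0.45, 0.58, 1.52 and 0.88 in the same order, unadjusted p = 0.000360 by edgeR) and the tetraspanin gene Cd9 (-0.65, 0.58, 0.63, 1.26 and 1.08, unadjusted p = 0.000694). None of these differences passed the adjustment. Leaving out cortex gave 9 called genes in the pooled comparison, leaving out corpus callosum 1, and leaving out hippocampus, cerebellum or spinal cord 0.

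**Figure D5:**
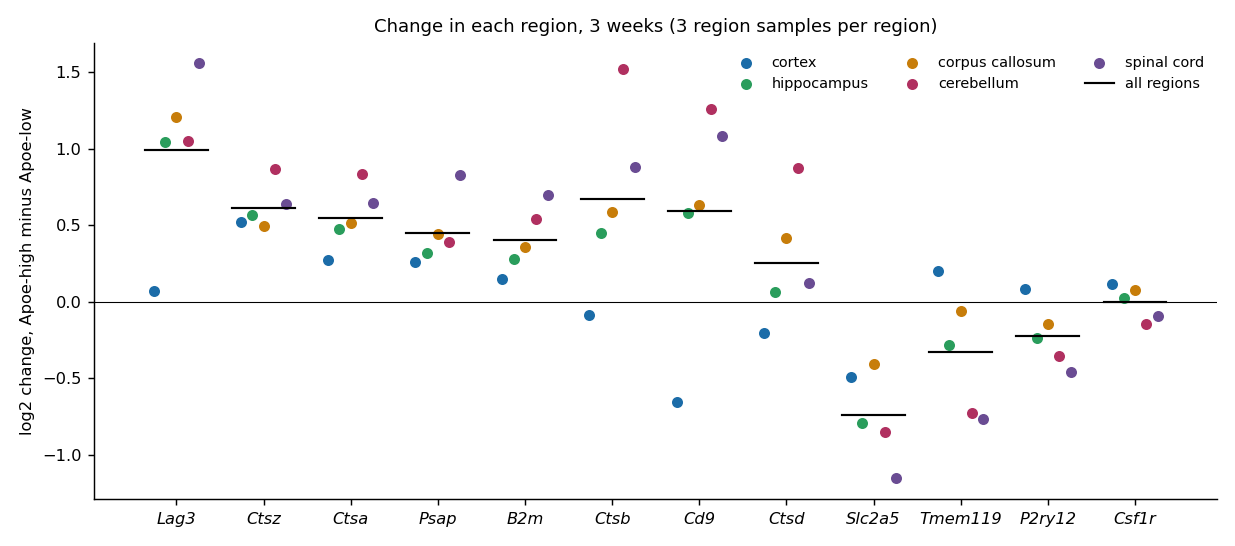
Log2 change (Apoe-high minus Apoe-low wells) of 12 genes in each region at 3 weeks (points, 3 region samples each) and over all regions (bars). Psap and Slc2a5 keep their direction in every region; Lag3, Ctsb and Cd9 are lowest in cortex, at 0.07, -0.09 and -0.65.

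The same thresholds were applied to wells of the other ages, which the rule did not use. At 16 weeks, 39 Apoe-high and 659 Apoe-low wells were summed over regions by replicate number (4 pairs), and 0 of 11771 genes were called by edgeR. Psap (3897 ± 307 against 2768 ± 106 CPM), Ctsz (3489 ± 542 against 2424 ± 422 CPM), Ctsb (4815 ± 1397 against 3035 ± 764 CPM), Cd63 (227 ± 47.7 against 49.6 ± 11.6 CPM) and Lyz2 (227 ± 71.4 against 61.1 ± 22.6 CPM, SD, n = 4 each) were higher in 4 of 4 pairs, each with an edgeR adjusted p of 0.207. Ctsa was higher in 3 of 4 pairs, with a log2 change of 0.09. Matched by region sample (5 pairs), the genes gave these counts: Psap, Cd63 and Lyz2 were higher in 4 of 5 pairs, Ctsz (log2 change 0.26) and Ctsb (0.17) in 3 of 5 and Ctsa (-0.23) in 2 of 5, none of them called by edgeR. By replicate number, Lag3 was higher in 2 of 4 pairs (217.9 ± 144 against 262 ± 55.4 CPM) and Slc2a5 in 1 of 4 (920 ± 549 against 1420 ± 536 CPM). P2ry12 was higher in 0 of 4 (7989 ± 972 against 10664 ± 679 CPM, SD, n = 4, edgeR adjusted p = 0.207). Matched by region sample, Slc2a5 was higher in 1 of 5 pairs (log2 change -1.26, edgeR adjusted p = 0.0481). P2ry12 was higher in 0 of 5 (-0.75, edgeR adjusted p = 1.39e-05), so both were called lower. The median log2 change over all genes of that fit was -2.10. Lag3 was higher in 2 of 5 pairs (-0.63) and was not called. Whether Lag3 differs between the ages in this respect was not tested. Over the 5 region samples with at least 3 wells of each class (19 Apoe-high wells), 104 of 7026 genes (1.48%) were called, all lower, and the count fell to 3 with other size factors and to 0 on thinned wells.

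Embryonic wells gave no comparable contrast, since 26 wells were Apoe-low against 583 Apoe-high, and in 21 of the 26 Gm10800 and Gm10801 reached 1000 CPM. Over 4 region samples 292 of 10798 genes were called (2.7%), 64 higher (0.593%) and 228 lower (2.11%), and the count fell to 7 without a filter on low counts and to 75 on thinned wells. By replicate number (4 pairs) 56 were called (0.395%), 5 higher (0.0353%) and 51 lower (0.36%), by edgeR.

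Genes that changed between ages were then read in the 3-week comparison. In cerebellum and spinal cord, 2178 of 11093 genes (19.6%) were called between embryonic and 16-week samples by edgeR. Of these, 1187 (10.7%) were higher in embryonic than in 16-week samples and 991 (8.93%) lower. Of the first set, 917 were tested at 3 weeks and 58.7% had a positive change in Apoe-high wells (median 0.08), against 30.2% of the 939 of the second set (median -0.18) and 36.8% of all 9106 genes tested in both. Ctsa, Ctsz and Lag3 were called higher in the first set, and in the second Psap was called higher and Slc2a5 lower. At an unadjusted p under 0.05 the first set had 45 genes higher and 5 lower, and the second 13 higher and 75 lower. Of all 9106 genes, 6 were called higher and 2 lower, and 110 were higher and 278 lower at that unadjusted threshold. The age comparison shares no sample with the 3-week comparison, and in it age and plate cannot be told apart. The ages also differ in Apoe, so the sets are not independent of it. Over all regions, 90.5% of embryonic and 5.01% of 16-week wells were Apoe-high.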

How the data were processed

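Gene expression was measured in 2688 wells (28 of them blanks) on 7 plates. The authors deposited unnormalised read counts per gene and well, for which the submitters' processing notes name STAR (2.5.2b), featureCounts (1.6.2) and the GRCm38 build. Gene positions and a Length column are also in the table per the file headers; Length was not used. It held 48587 gene rows and 92 spike-in rows, and 716 gene rows shared a symbol with another. No strand setting is given in the sources used here, so reads of overlapping genes on opposite strands cannot be told apart. The 224 wells of plate columns 1 and 2 were left out because their deposited counts also contain those of other wells of their row: of 1956668 values compared, 0 lay below the sum of those wells, against 63% for the next row.

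Of 950 sorted 3-week wells, 96 lay in these columns, 77 of the other 854 had under 500 genes and 1 had over 20% mitochondrial counts, which left 776. Counts were summed per region sample and Apoe class and tested with edgeR 4.0.16 in R 4.3.3 (TMM, filterByExpr, robust quasi-likelihood F test, two-sided, region sample as a block, Benjamini-Hochberg over all genes tested, threshold 0.05); CPM are counts scaled by TMM library size, except Apoe per well. DESeq2 1.42.0 and limma 3.58.1 (pseudocount 1) were alternatives. The fits of Apoe-high against Apoe-low wells were tested on simulated data. Most seeded changes were not called there, so a gene without a call may still differ. Intervals and floors cover counting error only. Both classes of a pair come from the same region sample, which is where the pairing comes from. The members and the gene lists were chosen with earlier results of these data known. Genes were named by rule: Apoe, the up to 14 called genes per direction with the largest change, a mean of at least 20 CPM and the same direction in at least 80% of region samples, the up to 4 called members of each list with the smallest p, and cell type markers; exceptions are named as such.
Some results are not reported here.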

Additional observations from a re-analysis of the deposited data

Results flagged for a closer look

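In embryonic cerebellum, 1 of 4 region samples stood apart from the others in its share of wells with at least 3000 CPM of Apoe: 14 of 16 wells (87.5%, 95% Wilson interval 64.0 to 96.5%) against 95.5 to 95.7% in the other 3. It was the 1 of 9 groups of 4 samples that did so; chance alone marks about 1 group in 20, and the sample held the fewest wells of its group.

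Of 40 genes looked at by region at 3 weeks, 6 were higher in Apoe-high wells in every region sample of 1 region and lower in every region sample of another. The same count over all genes tested was not made, so 6 of 40 is not read as an excess. Cd9 (log2 change over all regions 0.592) was higher in corpus callosum, cerebellum and spinal cord and lower in cortex. Tmem119 (-0.327) was higher in cortex and lower in hippocampus, cerebellum and spinal cord. C3ar1 (1.08) was higher in cerebellum and spinal cord and lower in cortex, and Fcrls (0.0801) was higher in corpus callosum and cerebellum and lower in spinal cord. Csf1r (-0.00378) was higher in corpus callosum and lower in cerebellum, and C1qa (0.0151) was higher in corpus callosum and lower in hippocampus. The unadjusted p of the difference between regions was 0.000694 for Cd9, 0.00146 for Tmem119, 0.0159 for Fcrls, 0.0233 for C3ar1, 0.224 for Csf1r and 0.258 for C1qa, and edgeR's adjusted p was 1 for each.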

How the results depend on the processing

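The 8 genes called between Apoe-high and Apoe-low wells at 3 weeks became 231 with DESeq2 (61 higher, 170 lower), 80 with limma on log2(CPM + 1), 50 without a filter on low counts, 4 without wells with border macrophage genes or without those with Ccl3 and Ccl4, 3 with at least 10 wells per class, 2 with Apoe-high from 2000 CPM, and 1 from 5000 CPM. Without the region-sample block 1 was called, and 0 with a replicate block on sums by replicate number. Without replicate 1, 2 or 3 the count was 0, and without a region 0 to 9. Added after seeing the data were limma on thinned wells (17), and limma without wells high in Gm10800 and Gm10801 (24). Each of the 8 genes kept its direction in every setting that tested it (26 for Lag3, Slc2a5, Ctsz, Ctsa, Psap and B2m, 20 for Axl, 22 for Papd5) and passed the threshold in 16, 16, 15, 12, 9, 6, 8 and 9 of them. The cause of these moves was not tested. All settings draw on the same wells, so a kept direction is no separate support.

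Without a filter, calls were 13 for the intermediate class (0 with it) and 30 for the difference between regions (0 with it). At 16 weeks the 104 calls became 3 with RLE size factors, 8 without a filter, 0 without the region-sample block and 0 on thinned wells. Added later were 7 without the Gm10800 wells and 0 by replicate number. For embryonic wells, 292 became 7 without a filter, 75 on thinned wells and, added later, 56 by replicate number. The 2178 age calls became 1350 to 1806 without 1 replicate. Differences in quality without 1 replicate were 108 to 211 genes, 0.421 to 0.577 percentage points of mitochondrial and -0.0533 to -0.0301 of spike-in counts; without the Gm10800 wells, the spike-in difference was -0.0204. The smallest classes tested held 5 wells at 3 weeks and 3 at the other ages, which limits what can be seen of genes with reads in few wells.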
